A study of Mus musculus with 12 samples.

Results

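The recurrent 5-hydroxymethylcytosine (5hmC) regions at promoters described here were places in the mouse hippocampus where a 5hmC peak close to a transcript start was called in 4 or 5 of 6 libraries. Peaks of all 6 lists on chromosomes 1 to 19 were pooled, and those that shared at least 1 bp were merged into 74401 regions. A region was kept when 4 or 5 libraries had a peak in it and when it touched a base within 1 kb of a transcript start in the RNA annotation. This left 544 regions, 330 with a peak in 4 libraries and 214 with a peak in 5. They were 544 of 3634 autosomal regions at promoters and of 6955 regions with 4 or 5 libraries anywhere. Members were chosen by the measured presence of peaks, that is by the number of libraries with one, and by place, so presence is given here as a description and carries no test. The "promoter" of the working name refers to the 1 kb window. Most of the regions did not reach a start, as shown further on.

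The study profiled the hippocampus of male C57BL/6 mice after acute restraint. Mice of the stress group (6 animals) were held in a conical tube for 30 min, starting 2 h after lights on, and spent 1 h in a clean cage before tissue collection. Control mice (5 animals) were naive to the tube, were taken from the cage when the restraint of the others began, and had no such hour, so handling, housing and time of day differ together with the restraint. Both groups received brief isoflurane before collection. Their age is postnatal day 28 in the sample tags but 7 weeks in the treatment protocol. DNA from punches of the whole hippocampus was pooled from at most 2 mice for each library, which gave 3 stress and 3 control 5hmC libraries. RNA was deposited as 1 table of transcript levels per group.

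5hmC is made when TET enzymes oxidise methylated cytosine, and it is abundant in neurons, above all over the bodies of active genes. Many mammalian promoters lie in CpG islands, stretches rich in the dinucleotide CpG that are usually free of methylation and therefore offer TET enzymes little substrate at the start itself. Promoters with few CpG sites are more often methylated and more often belong to genes used in few tissues. A punch of hippocampus mixes neurons, glia and vessels, and a change in the share of cells with a mark cannot be told apart from a change of the mark within cells. The same holds for RNA, where fewer cells of a type and less RNA per cell cannot be told apart.

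The regions met the start in 2 ways, and promoter sequences of some of the genes are given for each. Each sequence is the window from 250 bases before to 50 after a gene's start in the RefSeq promoter table (build GRCm38.p6), written 5′ to 3′ along the gene, with every CpG in capitals. The regions themselves are in mm9, and the gene's span in both builds was required to agree within 20 bp before a start was taken to be the same. In the first set, the start and its window lay under a recurrent region. FPKM, the unit of the RNA tables, counts fragments scaled to transcript length and library size. Of 5 such genes with at least 1 FPKM and a single window in the table, Sh3gl3 failed the span requirement and the other 4 are shown. Inha encodes the alpha subunit of inhibin, Tmem81 a transmembrane protein and Ly86 a protein that joins a Toll-like receptor homologue on immune cells.
4930480K15Rik, chr17:90860919-90861218, plus strand: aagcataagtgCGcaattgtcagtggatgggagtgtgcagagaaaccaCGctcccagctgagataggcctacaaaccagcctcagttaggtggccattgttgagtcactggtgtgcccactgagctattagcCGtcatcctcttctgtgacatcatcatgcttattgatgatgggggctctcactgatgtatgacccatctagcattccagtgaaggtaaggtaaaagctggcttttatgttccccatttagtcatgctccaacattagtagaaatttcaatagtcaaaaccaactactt
Inha, chr1:75507359-75507658, plus strand: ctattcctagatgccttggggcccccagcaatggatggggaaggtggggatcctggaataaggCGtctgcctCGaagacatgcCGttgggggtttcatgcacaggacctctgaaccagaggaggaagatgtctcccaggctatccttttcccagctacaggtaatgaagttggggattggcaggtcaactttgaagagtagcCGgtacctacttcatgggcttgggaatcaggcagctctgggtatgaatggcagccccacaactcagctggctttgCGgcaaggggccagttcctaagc
Tmem81, chr1:132505980-132506279, plus strand: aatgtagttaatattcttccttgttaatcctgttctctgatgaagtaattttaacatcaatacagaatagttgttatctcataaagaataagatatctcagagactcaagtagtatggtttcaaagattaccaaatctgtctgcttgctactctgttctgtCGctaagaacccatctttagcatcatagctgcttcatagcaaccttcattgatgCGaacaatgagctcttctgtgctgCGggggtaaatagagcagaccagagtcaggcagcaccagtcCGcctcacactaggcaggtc
Ly86, chr13:37345095-37345394, plus strand: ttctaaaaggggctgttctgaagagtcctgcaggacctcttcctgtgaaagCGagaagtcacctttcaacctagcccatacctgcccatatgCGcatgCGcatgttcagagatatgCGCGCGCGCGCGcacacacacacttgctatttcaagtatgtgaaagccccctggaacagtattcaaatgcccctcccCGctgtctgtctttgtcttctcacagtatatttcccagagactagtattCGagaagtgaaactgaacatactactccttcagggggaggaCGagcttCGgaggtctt
The windows of 4930480K15Rik, Inha and Tmem81 held 3, 5 and 4 CpG sites, with observed/expected CpG, the number of CpG sites relative to that predicted from the C and G content, of 0.19, 0.22 and 0.32. The window of Ly86 held 13 CpG sites at an observed/expected ratio of 0.69, and many of these stood in a run of CG repeats. That ratio was close to the 0.70 of Mt2 in the second set, so Ly86 did not show the contrast. Sh3gl3, which is not printed, had a ratio of 0.64.

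In the second set, chosen after the data were seen, the region lay beside a bare start. Ckap4 encodes a membrane protein of the endoplasmic reticulum, Cog2 a subunit of a Golgi tethering complex and Mt2 a metallothionein, which binds zinc and is induced by glucocorticoids.
Ckap4, chr10:84533839-84534138, minus strand: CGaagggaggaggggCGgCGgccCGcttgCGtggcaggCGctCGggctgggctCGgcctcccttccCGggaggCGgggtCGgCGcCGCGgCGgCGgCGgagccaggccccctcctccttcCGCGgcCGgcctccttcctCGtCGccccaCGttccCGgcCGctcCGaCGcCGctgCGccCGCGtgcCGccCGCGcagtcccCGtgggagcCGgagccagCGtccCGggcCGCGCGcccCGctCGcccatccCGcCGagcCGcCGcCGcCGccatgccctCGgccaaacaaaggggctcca
Cog2, chr8:124520517-124520816, plus strand: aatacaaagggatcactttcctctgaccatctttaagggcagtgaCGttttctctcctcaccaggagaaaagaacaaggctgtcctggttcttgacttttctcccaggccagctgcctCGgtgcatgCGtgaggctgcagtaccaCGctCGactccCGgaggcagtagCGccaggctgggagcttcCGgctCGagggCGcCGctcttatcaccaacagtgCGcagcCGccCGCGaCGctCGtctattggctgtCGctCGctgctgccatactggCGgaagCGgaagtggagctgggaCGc
Mt2, chr8:94172368-94172667, plus strand: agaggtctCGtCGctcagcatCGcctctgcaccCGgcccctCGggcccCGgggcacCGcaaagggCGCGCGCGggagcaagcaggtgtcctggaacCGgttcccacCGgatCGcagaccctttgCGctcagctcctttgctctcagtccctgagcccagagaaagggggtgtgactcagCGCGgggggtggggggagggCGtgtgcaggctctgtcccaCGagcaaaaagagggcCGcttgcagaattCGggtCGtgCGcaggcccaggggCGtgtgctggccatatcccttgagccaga
These windows held 50, 22 and 24 CpG sites, at observed/expected ratios of 1.02, 0.82 and 0.70. The nearest base of the recurrent region lay 834, 935 and 927 bp from the start of Ckap4, Cog2 and Mt2. All 7 genes stood at or above 1 FPKM in the control table, where the median observed/expected ratio over genes of recurrent regions was 0.63 with a covered start and 0.74 without. The printed sequences are therefore further apart than the medians at that level.

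Among the regions, 107 (19.7%) covered the nearest start, 248 (45.6%) lay wholly downstream of it and 189 (34.7%) wholly upstream. The centre of the median region lay 596 bp downstream, with quartiles 926 bp upstream and 1336.5 bp downstream. By contrast, 359 of 1690 promoter regions with a peak in 1 library (21.2%) covered the start and 38.1% lay downstream. Promoter regions with all 6 libraries covered the start in 8.59% and lay downstream in 60.9%. Regions with 2 and with 3 libraries covered it in 25.4% and 23.9%. The share that covered the start thus did not fall steadily with the number of libraries, and the share downstream was higher with 4 or 5 libraries than with 1, 2 or 3.

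Coverage along the start followed the same shape in every library. In the first 100 bp downstream of the nearest start, peaks of stress replicates 1, 2 and 3 covered 10.4%, 16.4% and 16.2% of the bases. Peaks of control replicates 1, 2 and 3 covered 6.20%, 14.6% and 6.14% there. The highest bin was centred 1150 bp downstream, or 1050 bp in stress replicate 3, with 28.5%, 44.5% and 43.6% in the stress libraries and 23.2%, 38.6% and 21.3% in the control libraries. A lower crest stood upstream, and 950 bp before the start the 6 libraries had between 17.9% and 28.6%. The rule favours bases within 1 kb of a start, so the height of these curves is set by the choice of regions. The crests lie near the edge of that 1 kb window, so their place depends on the rule too. The dip at the start was not required by it. Over all autosomal 5′-most starts, coverage in the same first 100 bp was between 0.337% and 1.49%, and the highest bin, 1750 to 2050 bp downstream, had 2.15% to 5.32%.

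**Figure D1:**
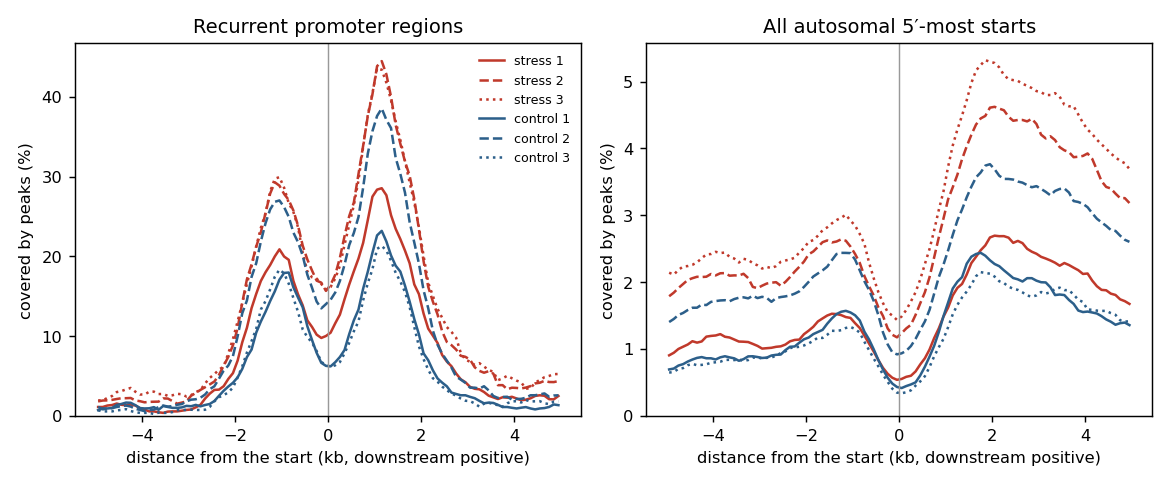
Share of bases under peaks (%) in 100 bp bins from 5 kb upstream to 5 kb downstream of the start, 1 line per library, for the 544 regions around their nearest start (left) and for all autosomal 5′-most starts (right); the vertical scales differ. All 6 lines dip at the start and crest downstream, at 1050 or 1150 bp for the recurrent regions and at 1750 to 2050 bp for all starts. The crest of the recurrent regions lies near the edge of the 1 kb window of the rule.

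CpG content was counted in the promoter windows of protein-coding genes outside chromosome 18, a choice made after the data were seen because fewer than 80% of all member genes had a window. A gene was called CpG-rich when its windows averaged an observed/expected CpG ratio of at least 0.6 and a GC content of at least 50%. Of 400 genes with a recurrent region and a window (of 491), 220 were CpG-rich (55%). The share was 48.1% for all autosomal genes, 47.4% for genes with no region at the promoter, 48.1%, 50.2% and 53.9% with 1, 2 and 3 libraries, and 72.7% with all 6. Genes whose start was covered by a recurrent region were CpG-rich in 16 of 66 (24.2%; median observed/expected 0.35). Genes whose start was not covered were CpG-rich in 204 of 336 (60.7%; median 0.70). The same split among promoter regions with 1 to 3 libraries gave 21.1% and 56.8%, so it was not particular to recurrent regions. Among genes at or above 1 FPKM the shares were 51.7% (15 of 29) with a covered start and 68.4% (162 of 237) without, beside 72.0% for all autosomal genes at that level. Below 1 FPKM the shares were 2.70% (1 of 37) with a covered start and 42.4% (42 of 99) without. There 78.2% of member genes had a window, fewer than 80%, so no comparison is drawn from these 2 shares. The pooled shares above include these genes, 37 of the 66 with a covered start.

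**Figure D2:**
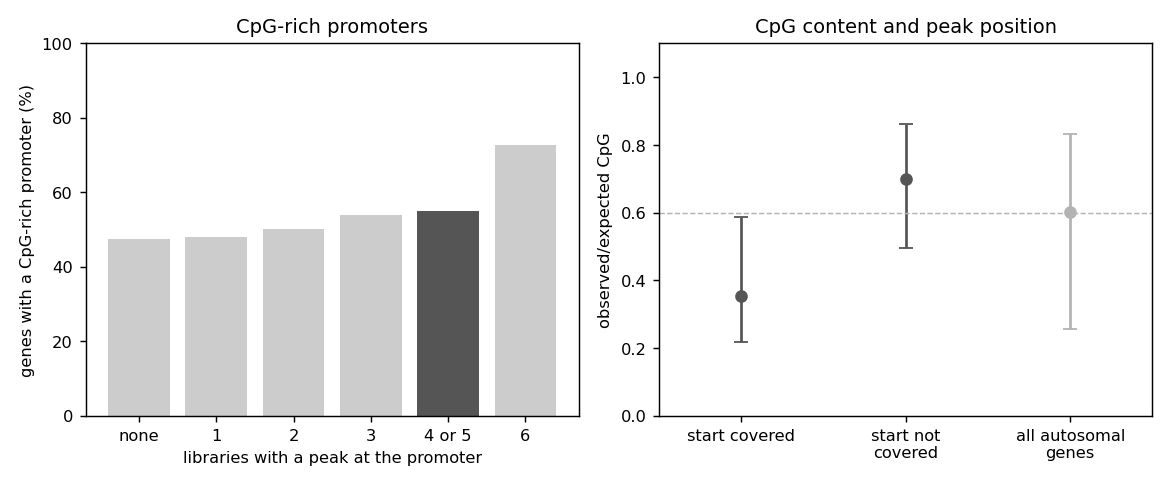
Share of protein-coding genes outside chromosome 18 with a CpG-rich promoter (%) by the number of libraries with a peak there (left), and the observed/expected CpG ratio as median (point) and quartiles (bars) for genes of recurrent regions with the start covered or not and for all such autosomal genes (right; the dashed line marks 0.6). The share is 55% for the recurrent regions and 72.7% with 6 libraries, and the median ratio is 0.35 with the start covered against 0.70 without.

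Most regions lay within 1 kb of the 5′-most start of a gene, 478 of them (87.9%). This share was 86.1%, 87.4%, 89.9% and 92.2% for promoter regions with 1, 2, 3 and 6 libraries. Only an internal start was touched by 48 regions (8.82%) and only the start of a short RNA of under 200 nt by 18 (3.31%). Starts of protein-coding transcripts were touched by 480 (88.2%), and starts of more than 1 gene by 37. In 56 regions (10.3%) every start touched lay inside the body of another gene. Of the bases of the regions, 25.1% were exonic, 46.8% intronic and 28.1% outside transcripts, against 16.4%, 45.9% and 37.7% with 1 library and 27.3%, 54.4% and 18.3% with 6. The regions were 796 to 6018 bp long with a median of 1403 bp. At the edges of the rule, median length was 1258 bp with 3 libraries and 1361 bp with 4, and 1457.5 bp with 5 and 1562.5 bp with 6. Per 100 genes, chromosomes held between 1.34 regions (chromosome 6) and 3.12 (chromosome 3).

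The regions with short RNAs included known microRNA clusters. A region at chr14:115442863-115444338 (mm9) covered the start of Mir17hg, the host of the polycistron with Mir17, Mir18, Mir19a, Mir20a, Mir19b-1 and Mir92-1. Peaks covered 933, 1229 and 0 bp of it in stress replicates 1 to 3 and 721, 0 and 1239 bp in control replicates 1 to 3, so the libraries with a peak were split evenly between the groups. A region at chr12:110828106-110829393 touched Mir433, Mir431 and 6430411K18Rik, which belong to an imprinted domain. It had 959, 1111 and 1119 bp in the stress libraries and 0, 1151 and 0 bp in the control libraries, and the groups overlapped through control replicate 2. These 2 regions were picked for this paragraph after their values were seen.

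The libraries with the 3 shorter lists lacked a peak most often. On autosomes, 15177, 27784 and 31636 peaks were listed for stress replicates 1, 2 and 3, and 17176, 27897 and 16303 for control replicates 1, 2 and 3. Stress replicates 1, 2 and 3 had a peak in 361 (66.4%), 491 (90.3%) and 484 (89.0%) of the 544 regions. Control replicates 1, 2 and 3 had one in 300 (55.1%), 473 (86.9%) and 281 (51.7%). Over all 6955 regions with 4 or 5 libraries the shares were 61.8%, 85.7%, 87.8%, 55.7%, 84.7% and 59.2% in the same order. The stress libraries and control replicate 2 were thus present a little more often at promoters, control replicate 1 about as often and control replicate 3 less often. Of the 214 regions with 5 libraries, the missing list was control replicate 1 in 69, control replicate 3 in 62 and stress replicate 1 in 44, and 1 of the longer 3 lists in the other 39. No list held a score under 50, and absence of a peak does not show absence of 5hmC.

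Regions held by all 3 stress libraries numbered 278 (51.1%), where the background over all regions with 4 or 5 libraries was 43.3%. Regions held by all 3 control libraries numbered 100 (18.4%, background 21.4%). The combination of 3 stress and 1 control libraries occurred in 134 regions (24.6%, background 21.8%) and that of 1 stress and 3 control libraries in 30 (5.51%, background 8.08%). The even combination of 2 and 2 took 166 regions (30.5%, beside 35.3% over all). Regions held by all stress libraries had a median length of 1480 bp and covered the start in 23.0%, and those held by all control libraries had 1179.5 bp and covered it in 11%. Protein-coding genes of the former were at or above 1 FPKM in the control RNA table in 60.5%, and of the latter in 66.7%. Regions with 2 stress and 2 control libraries had a median length of 1375.5 bp and covered the start in 19.3%. Their protein-coding genes reached 1 FPKM in 69.4%, above both other shares.

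**Figure D3:**
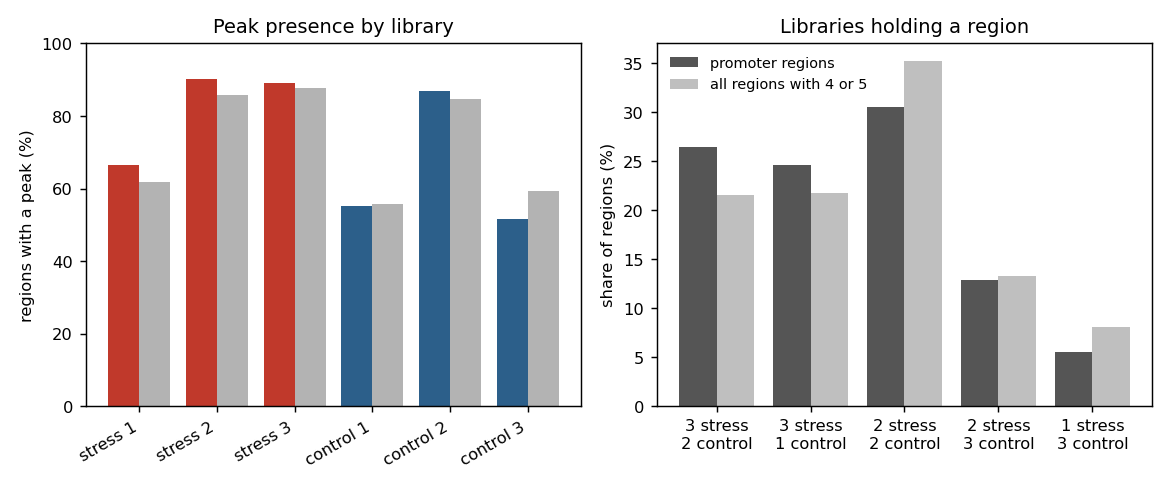
Share of the 544 recurrent promoter regions with a peak in each library (left, coloured bars; grey bars are all 6955 autosomal regions with 4 or 5 libraries) and share of regions by the number of stress and control libraries that hold them (right). Stress replicates 2 and 3 and control replicate 2 stand at 86.9% to 90.3%, the other libraries at 51.7% to 66.4%.

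The length of a region under peaks in each library gave a finer picture. In 97 regions (17.8%) every stress library covered more bases than any control library, against a percentage of 13.6 over all regions with 4 or 5 libraries. In 9 regions (1.65%) every control library covered more, against 1.97 over all. Since presence is part of the rule and covered length follows it, these counts are descriptions. When each list was cut to its top-scoring peaks at an equal covered length, the counts were 60 of 355 (16.9%, background 13.1%) and 6 of 355 (1.69%, background 2.37%). Leaving out any library changes the rule to 3 or 4 of 5 and compares 2 libraries with 3, and both counts were then higher. The stress-higher share became 36.2% (291 regions, background 29.8%) without stress replicate 1 and 37.5% (268, background 28.5%) without control replicate 2. It was 21.1% (141, background 16.5%) without stress replicate 2 and 20.2% (129, background 16.2%) without stress replicate 3. It was 20.9% without control replicate 1 (172, background 15.8%) and without control replicate 3 (175, background 16.4%). The control-higher share was above the background without stress replicate 1 (36 regions, 4.48%, background 4.13%) and stress replicate 2 (51, 7.65%, background 6.98%), and below it without stress replicate 3 (35, 5.49%, background 7.65%). It was also below it without control replicate 1 (24, 2.92%, background 4.93%), 2 (19, 2.66%, background 3.56%) or 3 (26, 3.10%, background 4.22%). The place of the control-higher share relative to the background thus varied with the libraries used.

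Among the 97, the difference in mean covered length was greatest at Cog2. The region at chr8:127045602-127050591 (mm9), downstream of the start shown above, had 3522, 3397 and 4917 bp under peaks in stress replicates 1 to 3 and 2286, 0 and 0 bp in control replicates 1 to 3. Only control replicate 1 reached it among the controls. Its transcript stood at 3.22 FPKM in the control and 3.85 FPKM in the stress table.

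Gper1, a G protein-coupled receptor for oestrogen, had the longest region of all, at chr5:139898999-139905016. It had 3343, 4793 and 5133 bp in the stress libraries and 1918, 3296 and 0 bp in the control libraries, with the highest control just below the lowest stress value. The same stretch of chromosome 5 held the pair of regions of Gpr146, which encodes an orphan receptor. The region at chr5:139853389-139855744, shared with D830046C22Rik, had 2125, 2061 and 2302 bp in the stress and 1485, 1541 and 0 bp in the control libraries. That at chr5:139866646-139869833 had 1853, 3000 and 2311 bp in the stress and 1462, 1837 and 0 bp in the control libraries. In all 3 the groups did not overlap and control replicate 3 had no peak. Gpr146 RNA was at 2.45 FPKM in the control and 2.46 FPKM in the stress table, and Gper1 at 0.443 and 0.710 FPKM.

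Zfp646, a zinc finger gene, had 1289, 2704 and 4530 bp in stress libraries and 853, 0 and 1083 bp in control libraries. The stress values differed widely among themselves. Gm10432 was tighter, with 2286, 2482 and 2334 bp in the stress and 859, 0 and 0 bp in the control libraries. Asic1, an acid-sensing ion channel of neurons, had 2415, 3037 and 2534 bp in the stress and 888, 1019 and 0 bp in the control libraries. Every stress value at Gm10432 and Asic1 was more than the highest control value by over 1 kb.

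The opposite order was led by Akap5, which holds protein kinase A at synapses. Its region at chr12:77426322-77429098 had 1185, 1197 and 0 bp in the stress and 2777, 1515 and 1760 bp in the control libraries, and its RNA was at 10.3 FPKM in the control and 10.5 FPKM in the stress table. Atp13a3, a membrane transport ATPase, had 588, 0 and 0 bp in the stress and 1274, 1314 and 1450 bp in the control libraries. St7 had 842, 1155 and 0 bp against 1372, 1292 and 1589 bp. At Atp13a3 and St7 the control libraries lay close together, while those at Akap5 were as spread as the stress libraries. Kdm8, which encodes a JmjC-domain protein, had 0, 719 and 0 bp against 914, 947 and 820 bp, and the small nucleolar RNA Snora20 had 0, 881 and 0 bp against 1226, 1347 and 1051 bp. Stress replicate 3 had no peak at any of these 5 regions. A peak in every control library is fixed by the way they were picked.

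**Figure D4:**
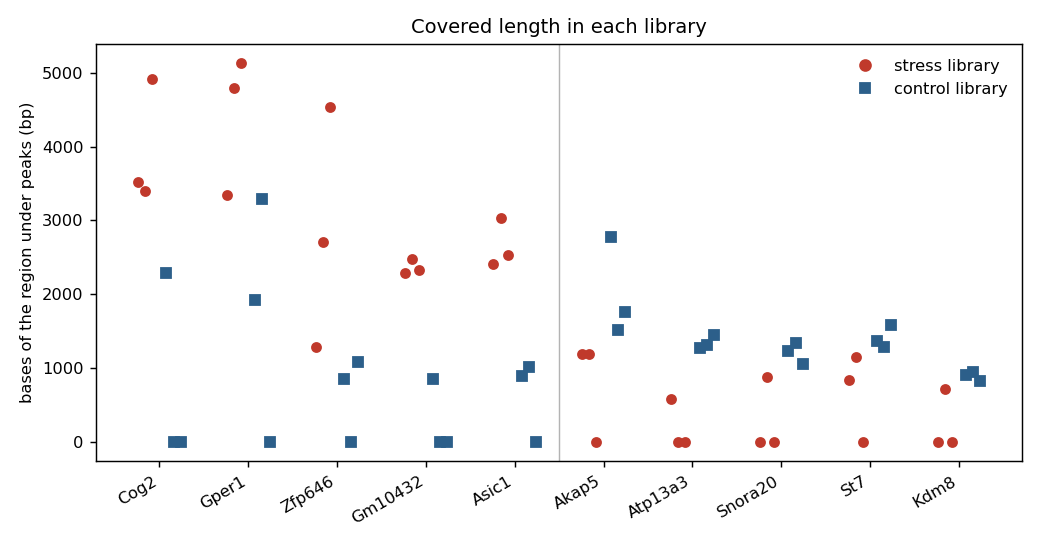
Bases of the region under peaks (bp) in each of 3 stress and 3 control libraries for the 5 regions with the largest difference in each direction among those whose groups did not overlap (stress higher left of the line, control higher right). At Asic1 the stress libraries lie between 2415 and 3037 bp and the highest control at 1019 bp, and at Atp13a3 the controls lie between 1274 and 1450 bp and the highest stress library at 588 bp.

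Long regions were not always higher in stress. Thy1, a surface glycoprotein of mature neurons, had 0, 1825 and 4714 bp in the stress and 0, 4627 and 4394 bp in the control libraries, and replicate 1 of both groups lacked a peak. Lifr, the receptor of leukaemia inhibitory factor, had 0, 2420 and 3461 bp against 1840, 3393 and 0 bp. Ckap4 had 2445, 2994 and 5663 bp against 0, 2669 and 0 bp. In each of these the groups overlapped. Papss1, Prom1 and Wipf1 had 2 recurrent regions each, as Gpr146 did, and the groups overlapped in all 6 regions of those 3 genes.

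Measures other than the presence of a peak were compared between the groups with exact two-sided permutation tests over the 20 assignments of 6 libraries. The smallest p possible is 0.1, so none could pass 0.05. The rule used peak length and position only through overlap and the touch within 1 kb of a start. Measures of length and position are therefore not independent of the choice of regions. The 5 tests were adjusted together by the Benjamini-Hochberg method, and their p-values describe differences between DNA pools. The share of covered bases within 2 kb of a start that lay downstream was 58.5%, 58.9% and 59.4% in stress replicates 1 to 3 and 56.4%, 58.0% and 54.5% in control replicates 1 to 3. The groups did not overlap, with 58.9% ± 0.427 in stress and 56.3% ± 1.78 in control libraries (SD, n = 3 each; exact permutation p = 0.1, adjusted p = 0.25). Peaks on the regions had a median length of 1053, 1154.5 and 1177 bp in stress and 928, 1065.5 and 927.5 bp in control libraries. The means were 1128 ± 66.1 bp and 974 ± 79.5 bp (SD, n = 3 each; exact permutation p = 0.2, adjusted p = 0.25), and control replicate 2 lay above stress replicate 1. All peaks of the lists had medians of 1028 bp in the stress and 932 bp in the control libraries, so longer peaks in stress were not confined to these regions.

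A transcript start lay under 15.2%, 17.3% and 16.6% of the peaks on these regions in stress replicates 1 to 3 and under 10.5%, 15.8% and 11.3% in control replicates 1 to 3. The means of 16.4% ± 1.07 and 12.6% ± 2.85 (SD, n = 3 each) overlapped through control replicate 2, with an exact permutation p of 0.2 and an adjusted p of 0.25. The difference was 0.98 points with 500 bp around each peak centre. Over all peaks of the lists the share was 1.20% in stress and 0.70% in control libraries, and there the groups did not overlap. Ranked by score within their own list, peaks on the regions had a median percentile of 74.3 ± 4.07 in stress and 70.0 ± 5.02 in control libraries (SD, n = 3 each; exact permutation p = 0.2, adjusted p = 0.25). The difference of 4.30 was 1.02 with lists of equal covered length and 1.34 with 500 bp peaks. The peaks stood above the middle of every list, from 66.5 in control replicate 3 to 76.8 in stress replicate 2.

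The bodies of the same genes were examined away from the regions and away from 1 kb around any start, for 340 loci of at least 10 kb among 12844. The mean share of a body under peaks, with each body counted equally, was 1.59%, 2.98% and 3.50% in stress replicates 1 to 3. It was 1.27%, 2.40% and 1.38% in control replicates 1 to 3. Divided by the same mean over all such bodies in the same library, the values were 1.21, 1.15 and 1.16 in stress and 1.07, 1.11 and 1.19 in control libraries, above 1 in all 6. The means were 1.17 ± 0.0295 and 1.12 ± 0.0616 (SD, n = 3 each; exact permutation p = 0.3, adjusted p = 0.3). The difference of 0.0504 turned to -0.0188 when a library counted only if it covered at least 50% of a region.

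Genes with a recurrent region stood more often at or above 1 FPKM than genes at large. Of 504 protein-coding genes with such a region, 64.1% stood at or above 1 FPKM in the control table, with a median of 2.49 FPKM. Over all 19631 autosomal protein-coding genes the share was 52.6% and the median 1.25 FPKM. The share was 51.4% for genes with no region at the promoter, 56.0%, 58.6% and 58.1% with 1, 2 and 3 libraries and 74.8% with 6. Below 0.1 FPKM stood 14.5% of the genes with a recurrent region and 30.9% of all. These are descriptions of 1 table, and no test was made. Where the region covered the start, 40.0% of 80 genes reached 1 FPKM (median 0.431 FPKM). Where it lay wholly downstream the share was 69.0% of 252 genes (median 2.59 FPKM), and wholly upstream 68.6% of 175 (median 3.39 FPKM).

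The RNA levels of these genes differed between the tables about as those of all genes did. All log2 differences given here are log2((stress + 1)/(control + 1)) of summed FPKM, and with 1 table per group they have no replicate and no test. A mean of at least 1 FPKM was reached by 329 of 585 genes, and their median difference was 0.07, beside 0.08 over all 10686 autosomal genes at that level, and 156 of the 329 lay above that median. At least 1.5-fold higher in the stress table was 1 gene (0.304%), where 1.19% of all genes were, and 4 genes (1.22%) were at least 1.5-fold lower, where 0.880% of all were. The median was 0.03 for 54 genes of regions with more covered length in every stress library and 0.08 for 6 genes of the opposite order. Both medians lay at or below that of all genes.

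The only gene past 1.5-fold upward was Ptprs, a receptor phosphatase of axons, which was listed at 0 in the control table and at 39.5 FPKM in the stress table. With 1 table per group the listed 0 cannot be checked, so this difference is uncertain. Among the 327 genes above 0 in both tables, 0 were at least 1.5-fold higher. The next were Rdh13, of the retinol dehydrogenase family (1.16 and 2.03 FPKM), Xpnpep1, an aminopeptidase (6.78 and 9.86 FPKM), Bet1l, a Golgi SNARE (5.51 and 8.08 FPKM), and Pigk, of the GPI transamidase (20.0 and 27.9 FPKM). At Ptprs the region had 1747, 1543 and 1062 bp under peaks in stress and 1387, 925 and 0 bp in control libraries, and the groups overlapped.

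Downward, the short RNA Mir8099-2 was at 111.9 FPKM in the control table and listed at 0 in the stress table, and it has more than 1 locus, so its value is uncertain. 1500015O10Rik was at 6.16 FPKM in the control and 1.32 FPKM in the stress table, a log2 difference of -1.63. Vamp8, a SNARE of late endosomes, was at 7.999 and 3.18 FPKM (-1.11). Ccdc153 was at 2.13 and 0.665 FPKM (-0.91) and Btbd17 at 1.76 and 1.00 FPKM (-0.46). Beside these, all 6 markers of choroid plexus and ependyma had lower values after stress, with a summed level of 232.2 FPKM in the control and 66.0 FPKM in the stress table and none at 0. Of the control sum, 216.7 FPKM came from 1 marker, so the sum mostly gives the level of that gene. The part of that tissue in the 4 lower genes was not tested. The region of 1500015O10Rik had 1107, 938 and 950 bp in the stress and 0, 0 and 866 bp in the control libraries, higher in stress while the RNA was lower. That of Vamp8 had 0, 1051 and 0 bp against 731, 942 and 1074 bp.

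**Figure D5:**
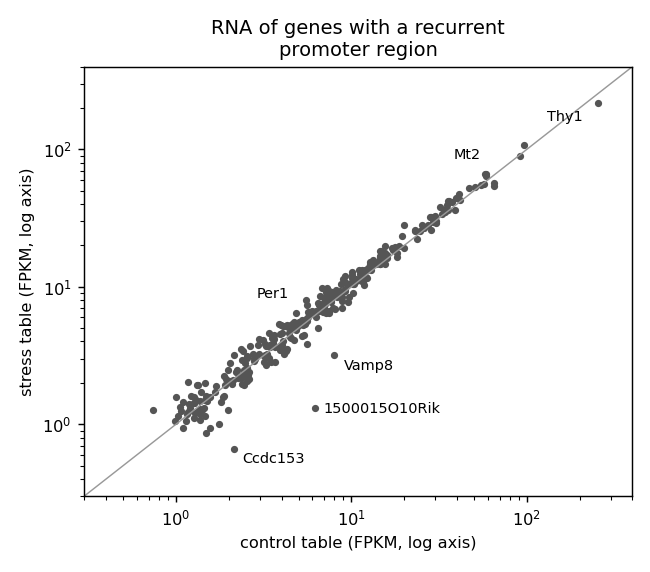
Summed FPKM of genes with a recurrent promoter region in the control table (horizontal) and the stress table (vertical), both on log axes, with the line of equal values; genes averaging 1 FPKM or more with a value above 0 in both tables are drawn. Vamp8, 1500015O10Rik and Ccdc153 lie below the line, and most other genes lie along it.

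Apart from Mir8099-2, which had the second highest control level, the genes with the highest levels had similar values in both tables. Thy1 was at 253.9 FPKM in the control and 218.4 FPKM in the stress table. Clstn1, a calsyntenin of synapses, was at 96.9 and 107.4 FPKM, and Ndufb8, of respiratory complex I, at 90.9 and 89.0 FPKM. Cnp, an enzyme of myelin, was at 65.3 and 57.2 FPKM, while 8 of 9 oligodendrocyte markers, Cnp among them, had lower values after stress, with a summed 1508 and 1323 FPKM and none at 0. The part of these cells in the difference was not tested. The region of Cnp had 1587, 1290 and 1547 bp in the stress and 0, 1252 and 0 bp in the control libraries, so every stress library covered more, though control replicate 2 came close.

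Few genes in the lists tied to stress and to synapses had a region, as was so for genes at large. The lists were made with earlier results of these data known. Over all autosomal genes, 585 of 22835 (2.56%) had a recurrent promoter region, and 3.08% of those averaging 1 FPKM or more. With lists this short, neither a share above these nor a list without a region shows a difference from genes at large. Such a difference was not tested. Of 21 glucocorticoid-induced genes 2 (9.52%) had a region, Mt2 and Per1. The region of Per1, a clock gene that the glucocorticoid receptor induces, had 869, 1179 and 1071 bp in the stress and 0, 1053 and 0 bp in the control libraries, and its RNA was at 4.85 and 6.46 FPKM. Mt2, with the bare start shown above, had 944, 962 and 0 bp against 718, 871 and 928 bp, and its RNA was at 58.3 and 66.5 FPKM. In both the groups overlapped. None of 18 stress hormone genes, which include the receptors for corticosteroids, and none of 35 immediate early genes had a recurrent promoter region.

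Among synaptic genes, 1 of 23 glutamate receptors (4.35%) had a region. It was Grin2b, a subunit of the NMDA receptor, with 0, 1606 and 1362 bp in the stress and 1268, 1215 and 1120 bp in the control libraries. Of 32 postsynaptic and plasticity genes 1 (3.1%) had a region, Nlgn2, an adhesion protein of inhibitory synapses. It had 795, 2097 and 2137 bp in the stress and 0, 2153 and 0 bp in the control libraries. The potassium channel subunit Kcnd2 and its partner Kcnip4 were the 2 of 48 voltage-gated channel genes (4.17%) with a region. No region was found for 17 GABA signalling genes, 28 presynaptic release genes or 52 genes of axon guidance and adhesion. At Grin2b, Nlgn2, Kcnd2 and Kcnip4 the groups overlapped in covered length.

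Of 49 histone-modifying enzymes, 2 (4.08%) had a region, Hdac7, a deacetylase, and Nsd1, a methyltransferase for lysine of histone H3. Nsd1 had 1073, 1335 and 1331 bp in the stress and 0, 972 and 823 bp in the control libraries, without overlap, and 11.8 and 12.9 FPKM of RNA. None of 22 genes of the DNA methylation and 5hmC machinery, 85 developmental regulators, 35 ribosomal protein genes and 53 kinase and phosphatase genes had one. Among cell type markers Cnp was the only gene, 1 of 8 oligodendrocyte markers, and none of the other 49 markers had a region. Of gene families taken by symbol, 1 of 1111 olfactory receptors, none of 328 vomeronasal receptors, none of 41 Hox genes and none of 69 protocadherins had a region. For solute carriers it was 15 of 375 (4%), for zinc finger genes named Zfp 9 of 355 (2.54%) and for microRNA entries 26 of 996 (2.61%), of which 7 lay in the single region of Mir17hg.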

How the data were processed

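Samples were grouped by their titles into 3 stress and 3 control pools, with DNA for 5hmC and RNA from the same tissue. For each 5hmC library the authors deposited a list of peaks with a score, without read counts, so the depth behind a peak is unknown; the labels' protocols give a range for all libraries together and none for each. The submitters' processing notes name Bowtie 0.12.9, edgeR and the build mm9 for 5hmC. The RNA tables that the authors deposited, 1 per group, give FPKM per transcript, and the same notes name TopHat 1.0.12, Cufflinks 2.1.1 and Cuffdiff 2.1.1.

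Peaks were merged, counted and measured in Python 3.11.15 with pandas 2.3.3, numpy 2.4.6 and scipy 1.17.1. Scores were ranked only within a list. FPKM of isoforms were summed per gene, genes averaging under 1 FPKM were left out, and the pseudocount of 1 understates changes of low genes. Promoter windows were matched by symbol to the RefSeq table (437 of 585 member genes). No sequence was read by mm9 coordinates. The merging steps were tested on simulated data.

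The regions, gene lists and tests were chosen with earlier results of these data known. Chosen after the data were seen were the restriction of CpG shares to protein-coding genes outside chromosome 18, the split by covered start, the bare-start promoters, and the requirement of a single window and a matching span for printed promoters. Genes named were the 5 longest regions with 4 and with 5 libraries, the 5 largest differences in each direction among regions whose groups did not overlap, the highest and lowest RNA differences, the highest control FPKM, members of the lists, genes with 2 regions and the printed promoters. The text names a part of them.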

Additional observations from a re-analysis of the deposited data

How the results depend on the processing

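The 544 regions became 292 with the higher-scoring 50% of each list, 355 with the same covered length per library, 345 with 500 bp around each peak centre, 293 with starts within 500 bp and 1027 within 2.5 kb. With 1 library left out, where 3 or 4 of 5 libraries were required, they numbered 638 to 839 (839 without control replicate 3 and 823 without control replicate 1). Regions with more covered length in every stress library were 62 with the higher-scoring 50% (21.2%, background 14.7%), 60 with the same covered length (16.9%, background 13.1%), 53 within 500 bp (18.1%) and 192 within 2.5 kb (18.7%; background 13.6% for both). With a library left out they were 129 to 291 (20.2% to 37.5%, background 15.8% to 29.8%). Regions of the opposite order were 5 with the higher-scoring 50% (1.71%, background 1.56%), 15 within 2.5 kb (1.46%, background 1.97%) and 19 to 51 with a library left out (2.66% to 7.65%, background 3.56% to 7.65%). With peaks of 500 bp all lengths are equal, so the length measures have no value there.

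The share of regions over the start was 14.8% with 500 bp peaks, 36.5% within 500 bp, 10.4% within 2.5 kb, 15.6% with protein-coding transcripts and 19.3% to 22.7% with a library left out. The share downstream was 29.7% within 500 bp, 58.4% within 2.5 kb and 43.0% to 45.0% with a library left out. CpG-rich promoters were 49.8% with 500 bp peaks, 45.1% within 500 bp, 62.1% within 2.5 kb, 33.0% with a ratio of at least 0.75 and GC of at least 55%, and 53.2% to 55.8% with a library left out. The share within 500 bp lay below the 48.1% of all autosomal genes. A wider or narrower window moves the position shares by its construction, and for the CpG shares and the other settings the cause was not tested.

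The body coverage ratio reversed to -0.0188 (exact permutation p = 0.7) when a library counted only with 50% or more of a region under its peaks, and its difference was 0.00281 to 0.0523 with a library left out. The other 4 tested differences kept their sign under every alternative run. The separation of the groups in the downstream share was not kept in all of them. Its exact permutation p was 0.3 with the higher-scoring 50% of each list, 0.3 with 500 bp peaks and 0.2 within 2.5 kb. With a library left out, peak length differed by 125.25 to 195.3 bp, start coverage by 3.82 to 7.11 points, the downstream share by 1.64 to 3.25 points and score percentile by 1.77 to 7.62. With 500 bp peaks start coverage differed by 0.98 points and score percentile by 1.34, and at equal covered length score percentile by 1.02.

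The median RNA difference of 0.07 was 0.0862 with a pseudocount of 0.1, 0.0148 without a filter on low values, -0.0119 after centring on all genes and 0.0767 for the most abundant isoform. Genes at least 1.5-fold higher were 4 of 329 with a pseudocount of 0.1 (3.08% of all genes), 4 of 324 for the most abundant isoform (2.19% of all) and 0 of 327 among genes above 0 in both tables (1.04% of all). Those lower were 8 of 329 with a pseudocount of 0.1 (1.97% of all).

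Replicate numbers gave no sign of pairing: covered lengths of same-numbered libraries deviated with r = -0.0373, -0.0532 and -0.0859. For different numbers r lay between -0.0505 and 0.107. These values cannot show whether the libraries were collected or processed in pairs. With the number as a replicate block, where the smallest p is 0.25, the exact sign-flip permutation p was 0.25 for 4 differences (154.5 bp, 3.80 points, 2.62 points and a percentile of 4.30) and 0.5 for the body ratio (0.0504). The depth of single libraries is unknown here, so a missing peak cannot be told apart from a shallow list.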

Other observations

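The deposited lists held between 4 and 12 peaks on chromosome X, beside 15177 to 31636 on the autosomes. The rule for the recurrent regions takes autosomes only.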
